A study of Rattus norvegicus with 12 samples.

Results

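The proteasome genes of the rat lens were taken as all genes whose symbol starts with Psma, Psmb, Psmc, Psmd, Psme, Psmf or Psmg and whose probe set carries that symbol alone. There were 48 of them among the 18166 genes with a single symbol on the array, and they were picked by name and not by their signals. Of the 48, 43 encode subunits, assembly factors or regulators, 3 are copies of such genes (Psma6-ps1, Psmd1-ps1 and Psmb3l2) and 2 share only the prefix (Psmc3ip and Psme3ip1). Whole lenses of male rats were measured on GeneChip Rat Gene 2.0 ST arrays, and each value is a log2 signal after Robust Multi-array Average (RMA) normalization. The strain ICR/Ihr develops hereditary cataract, and its lenses gave 3 arrays at 4 weeks of age, before cataract, and 3 arrays each at 8 and 10 weeks, when the labels record cortical opacity. Lenses of Sprague Dawley (SD) rats, labelled as without cataracts at every age, gave 1 array at 4, 8 and 10 weeks. No group received a treatment. The lenses were taken out of culture medium, ground whole and extracted, and the cDNA was amplified, so that epithelium and fibres lie in the same sample and fewer cells of a type cannot be told apart from less RNA per cell. The sources do not say whether the arrays of a group came from separate animals, so a p-value measures only the spread between these samples, and the number of arrays limits the precision.

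The proteasome is the large protease that degrades proteins tagged with ubiquitin. Its core particle is a barrel of outer alpha rings and inner beta rings, with the protease sites inside on the beta subunits Psmb5, Psmb6 and Psmb7, and a regulatory particle on the ends of the barrel binds ubiquitin, removes it and threads the substrate inwards. Under interferon the inducible beta subunits Psmb8, Psmb9 and Psmb10 can replace the constitutive ones to form the immunoproteasome. In the lens, where fibre cells keep their proteins for life after losing their organelles, the ubiquitin and proteasome system is known to be active in the epithelium and the outer fibres.

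Before any comparison, the ICR arrays numbered replicate 1 stood apart from those numbered 2 and 3 at all 3 ages. Between 3531 and 3934 genes reached a log2 signal of 5, the lower limit set here (the study left out genes below that value in all samples), on the replicate 1 arrays, against 3115 to 3271 on the other 6 ICR arrays and 3023 to 3339 on the SD arrays. The standard deviation of the signals over all probe sets was 1.90 to 2.01 on the replicate 1 arrays and 1.81 to 1.87 on the other 9. The tissue label was borne out on every array, with 12 of 12 measured lens fibre markers and 8 to 9 of 10 lens epithelium markers at or above the limit, and with 0 of 14 immune cell markers and 0 of 2 blood markers reaching it on any array. Of the 12 measured ciliary body and iris markers, 1 to 2 reached it per array. The median shift of the replicate 1 arrays against replicates 2 and 3 was 0.13 for the fibre markers (3 of 12 with all replicate 1 arrays on top) and 0.01 for the epithelium markers (1 of 10, Ptn). Within ICR, Ptn reached the limit only on replicate 1 arrays, those of 4 and 8 weeks, and it measured 5.05 on the SD array of 4 weeks. The summed signal of the immune markers was 6.41 to 6.47 on the log2 scale on the replicate 1 arrays, 6.40 to 6.60 on the other ICR arrays and 6.47 to 6.69 in SD, and that of the ciliary body and iris markers 7.50 to 7.79, 7.48 to 8.37 and 7.38 to 8.08. Values are given below for the replicate 1 arrays beside the others, and what sets these arrays apart was not tested.

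Of the 48 genes, 35 reached the limit on at least 1 ICR array and were tested among 4546 genes that did so, and 13 stayed below it on all 9. The 13 were the alpha subunit Psma5, the beta subunit Psmb3, all 4 inducible or tissue-specific beta subunits, the lid subunit Psmd8, the assembly factors Psmg1 and Psmg2, the meiotic gene Psmc3ip and the 3 copies. Of the 35, 3 (Psma2, Psme1 and Psmg4) reached the limit only on replicate 1 arrays. On each array the median deviation of the 35 tested genes from their mean over the 6 ICR arrays numbered 2 or 3 was 0.84, 0.08 and 0.15 at 4 weeks (replicates 1, 2 and 3), 0.93, -0.06 and 0.00 at 8 weeks and 0.73, -0.20 and 0.00 at 10 weeks. It was 0.13, 0.02 and -0.14 in SD at the same ages. The 3 replicate 1 arrays were thus the high ones, and the other 6 ICR arrays and the 3 SD arrays overlapped.

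**Figure D1:**
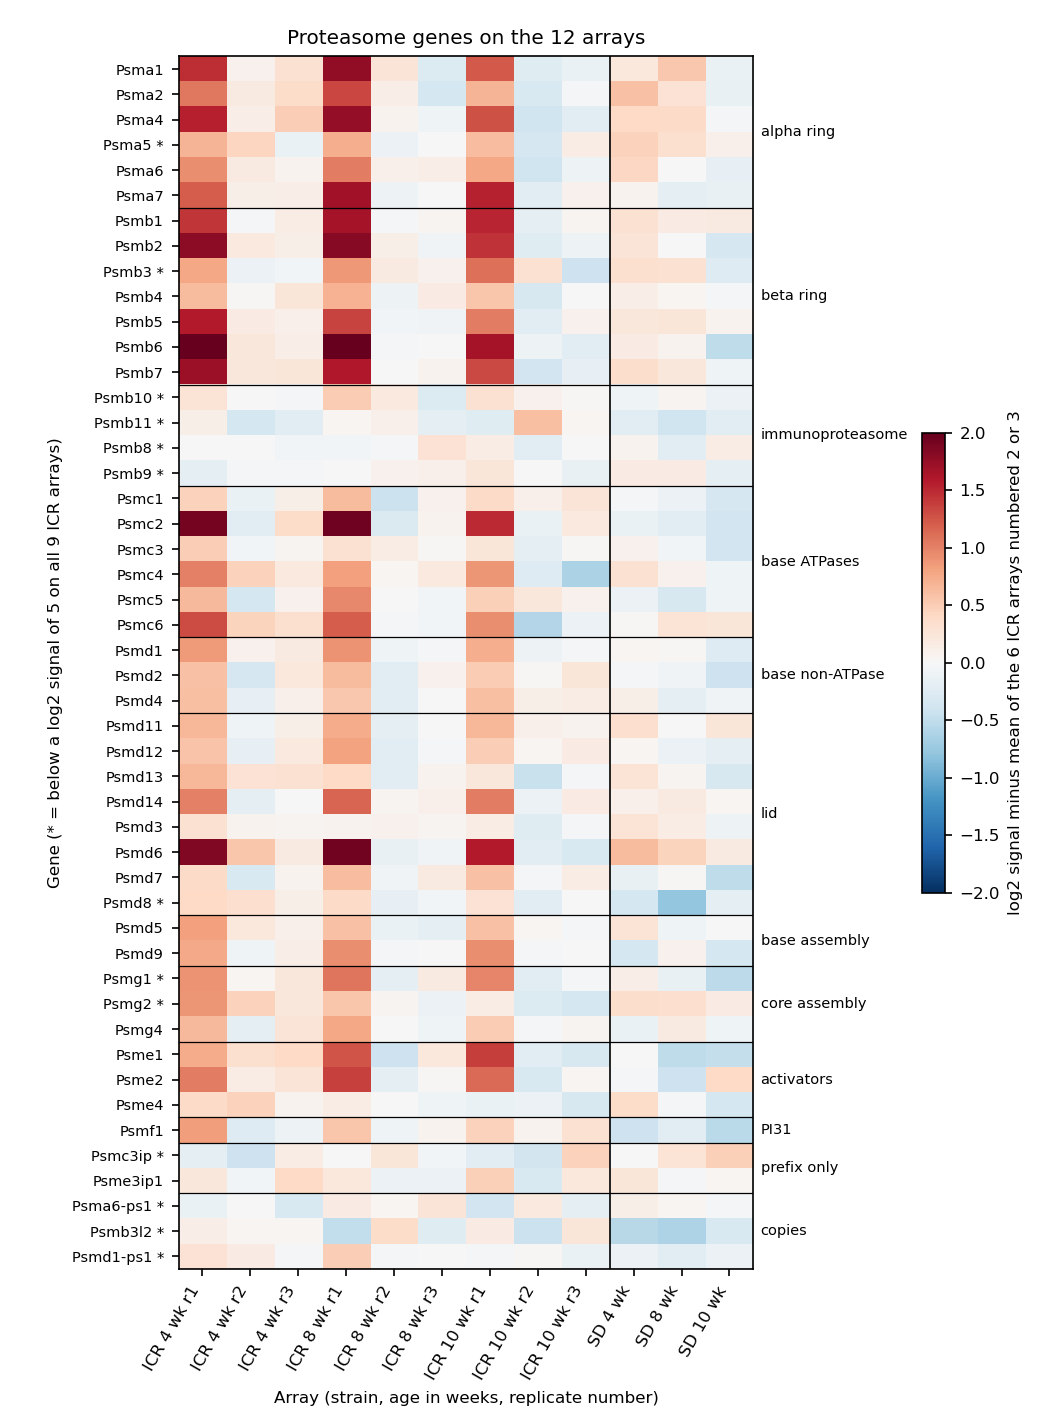
Log2 signal of each of the 48 proteasome genes on the 12 arrays, minus the gene's mean over the 6 ICR arrays numbered 2 or 3 (columns are arrays by strain, age and replicate number, rows are genes by group, red is higher and blue lower, and the scale runs from -2 to 2). The columns of ICR replicate 1 are red for most subunit genes at all 3 ages. The 4 immunoproteasome genes and the 3 copies, all of them below the limit of 5, are pale.

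The shift of the replicate 1 arrays was taken as replicate 1 minus the mean of replicates 2 and 3 at the same age, averaged over the 3 ages. Replicate number 1 was singled out because it stood apart, so the shift is a description and was not tested. Its median over the 35 tested genes was 0.87 on the log2 scale (1.83-fold), and over all 4546 genes tested 0.22. All 35 were shifted upwards, from 0.13 for Psme4 to 2.01 for Psmb6, as were 3175 of all 4546 genes tested. In 31 of 35 each replicate 1 array lay above each of the other 6 ICR arrays, where 35.0% of all genes tested did so. A count of 31 of 35 was also reached against the 3 SD arrays, where 1922 of all 4546 genes tested did so. A shift of 1 or more was seen in 15 of 35, against 14.0% of all genes tested. Without the genes that reached the limit only on replicate 1 arrays, the median was 0.85 over 32 proteasome genes and 0.14 over 3853 genes, with the replicate 1 arrays on top in 28 of the 32 and in 28.9% of the 3853. With quantile normalization of the 12 arrays the proteasome median was 0.58 and that of all genes -0.03, and with cyclic loess 0.72 and 0.06, so that relative to all genes it was 0.66 as deposited, 0.60 and 0.66.

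By role, the median shift was larger in the core particle than in the regulatory particle. It was 1.49 over the 11 tested core subunits, all 11 of which had the replicate 1 arrays on top, and 0.66 over the 16 tested regulatory subunits, of which 14 did. A shift of 1 or more was seen in 9 of the 11 and in 4 of the 16. The difference between the particles was not tested.

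**Figure D2:**
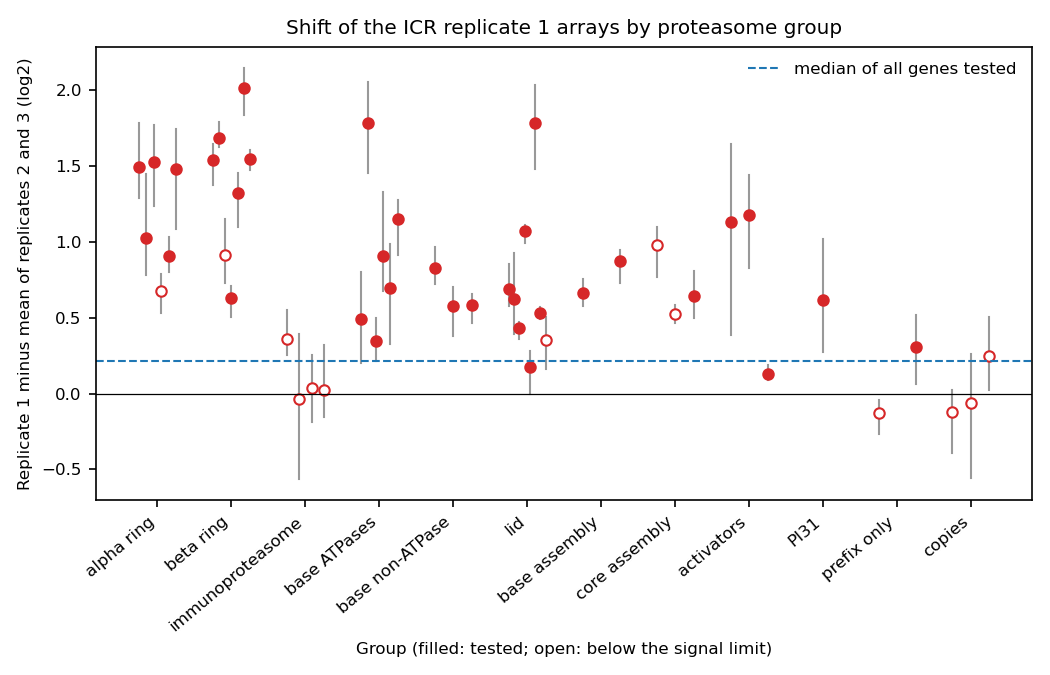
Shift of the ICR replicate 1 arrays by proteasome group (vertical axis, log2 signal of replicate 1 minus the mean of replicates 2 and 3; circles, mean of 3 ages, filled for tested genes and open for genes below the limit; grey lines, lowest to highest age; dashed line, median of all genes tested, 0.22). The alpha and beta rings lie well above the dashed line, and the immunoproteasome genes, all below the limit, lie around 0.

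The alpha ring forms the gate of the barrel, and 6 of its genes were measured. Psma4, the alpha subunit with the largest change with age, had signals of 6.74, 5.32 and 5.67 at 4 weeks, 6.95, 5.26 and 5.10 at 8 weeks and 6.46, 4.79 and 4.98 at 10 weeks in ICR, in the order of replicates 1, 2 and 3, here and below. In SD it measured 5.59, 5.57 and 5.16 at 4, 8 and 10 weeks. All 3 replicate 1 arrays were above the other 9, and the shift was 1.53. For Psma1 it was 1.49, for Psma7 1.48, for Psma2 1.03 and for Psma6 0.91. Psma5, below the limit, had a shift of 0.68, again with no overlap between the replicate 1 arrays and the other 6.

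The inner beta ring carries the protease sites, and its 7 constitutive genes included the largest shift of the 48. Psmb6, the caspase-like site, had signals of 8.91, 6.81 and 6.72 at 4 weeks, 8.61, 6.54 and 6.58 at 8 weeks and 8.25, 6.48 and 6.35 at 10 weeks. In SD it measured 6.75, 6.65 and 6.08. The replicate 1 arrays lay 2.01 ± 0.16 (SD over 3 ages) above their partners, or 4.03-fold, and the lowest of them was at 8.25 against a highest of 6.81 among the other ICR arrays. The second probe set of Psmb6 gave a shift of 2.07. Psmb7, the trypsin-like site, had signals of 8.25, 6.78 and 6.79 at 4 weeks, 8.15, 6.56 and 6.61 at 8 weeks and 7.87, 6.16 and 6.38 at 10 weeks, and 6.90, 6.76 and 6.47 in SD. Its replicate 1 arrays were again on top, with a shift of 1.55 ± 0.07. Psmb5, the chymotrypsin-like site and main target of proteasome inhibitors, had signals of 7.03, 5.60 and 5.55 at 4 weeks, 6.80, 5.39 and 5.38 at 8 weeks and 6.47, 5.22 and 5.53 at 10 weeks, and 5.67, 5.69 and 5.51 in SD. For Psmb5 too the replicate 1 arrays did not overlap with any other array, with a shift of 1.32 ± 0.20. Among the beta subunits without a protease site, the shift was 1.68 for Psmb2, 1.54 for Psmb1, 0.91 for Psmb3, which was below the limit, and 0.63 for Psmb4.

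Because these genes moved together on the replicate 1 arrays, their promoters were searched for the antioxidant response element, to which the proteasome transcription factor Nfe2l1 (also called Nrf1) is known to bind in mouse and human cells. RefSeq sequences (GRCr8) from 250 bases before to 50 bases after the start of the gene were matched for 40 of the 48 genes. The letters TGACNNNGC, on both strands, occurred in 7 of the 40 and in 12.1% of all 33469 promoters of that length. The 7 were Psmb2, Psmb5 and Psmb6, with Psmd1, Psmd3, Psmd9 and Psme4. The element began 24 bases before the start in Psmb6, 60 bases before in Psmb5 and 55 bases before in Psme4. The median shift of the 7 was 0.87 and that of the 24 tested genes without a match 0.69, and the 7 included both the largest shift (Psmb6) and the smallest among tested genes (Psme4). The CCAAT box, counted on both strands and without regard to overlap with the first motif, occurred in 19 of 40 and in 37.5% of all promoters. The promoters of the catalytic subunits Psmb5 and Psmb6, of Psme4 as the tested gene that shifted least and of Psmb9 as an inducible subunit with no match are shown 5′ to 3′ along the gene, with the element in capitals, which in Psme4 reads on the opposite strand. They lie at chr10:55737638-55737937 (plus strand) for Psmb6, chr15:32047330-32047629 (minus strand) for Psmb5, chr14:108706393-108706692 (plus strand) for Psme4 and chr20:4668750-4669049 (plus strand) for Psmb9. A match describes the letters only.
Psmb6: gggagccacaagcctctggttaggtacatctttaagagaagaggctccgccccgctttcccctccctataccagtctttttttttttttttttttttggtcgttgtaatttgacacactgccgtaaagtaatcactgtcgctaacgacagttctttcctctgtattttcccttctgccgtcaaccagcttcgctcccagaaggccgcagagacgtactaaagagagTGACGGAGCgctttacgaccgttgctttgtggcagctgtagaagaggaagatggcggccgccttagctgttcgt
Psmb5: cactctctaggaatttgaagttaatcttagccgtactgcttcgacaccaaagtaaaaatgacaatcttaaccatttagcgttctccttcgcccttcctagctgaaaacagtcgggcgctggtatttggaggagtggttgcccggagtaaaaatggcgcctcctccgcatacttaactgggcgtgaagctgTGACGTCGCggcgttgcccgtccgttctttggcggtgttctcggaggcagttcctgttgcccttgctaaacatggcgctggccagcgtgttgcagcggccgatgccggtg
Psme4: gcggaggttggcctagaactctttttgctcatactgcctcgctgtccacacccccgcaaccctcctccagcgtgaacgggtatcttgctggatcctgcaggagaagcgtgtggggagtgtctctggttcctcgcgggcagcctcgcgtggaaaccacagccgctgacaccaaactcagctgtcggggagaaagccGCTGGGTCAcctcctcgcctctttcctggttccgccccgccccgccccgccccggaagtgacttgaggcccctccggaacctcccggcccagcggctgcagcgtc
Psmb9: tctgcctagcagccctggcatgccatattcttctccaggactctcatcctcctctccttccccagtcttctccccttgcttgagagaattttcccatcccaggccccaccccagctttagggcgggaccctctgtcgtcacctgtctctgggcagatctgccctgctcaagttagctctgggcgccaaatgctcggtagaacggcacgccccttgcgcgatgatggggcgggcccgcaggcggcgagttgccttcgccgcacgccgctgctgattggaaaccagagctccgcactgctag

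The inducible subunits had small shifts. All 4 genes of the group were below the limit on every array, so they were not tested. For the same reason their shifts cannot be set against those of the constitutive subunits. Psmb8, which replaces Psmb5, had signals of 2.08, 2.06 and 2.02 at 4 weeks, 2.01, 2.05 and 2.36 at 8 weeks and 2.22, 1.87 and 2.07 at 10 weeks, and 2.14, 1.84 and 2.22 in SD. Psmb9, which replaces Psmb6, had signals of 3.63, 3.78 and 3.78 at 4 weeks, 3.80, 3.90 and 3.91 at 8 weeks and 4.05, 3.80 and 3.65 at 10 weeks, and 3.97, 3.97 and 3.62 in SD. For both the replicate 1 arrays overlapped with the others, with shifts of 0.03 and 0.02. Psmb10, which replaces Psmb7, had signals of 4.00, 3.73 and 3.71 at 4 weeks, 4.23, 3.92 and 3.45 at 8 weeks and 4.04, 3.81 and 3.76 at 10 weeks, and 3.64, 3.79 and 3.61 in SD. Its replicate 1 arrays were the highest by a small margin, 4.00 against 3.92, with a shift of 0.36. Psmb11, the thymus-specific subunit, had signals of 2.47, 2.01 and 2.16 at 4 weeks, 2.40, 2.47 and 2.19 at 8 weeks and 2.12, 2.96 and 2.40 at 10 weeks, and 2.14, 1.96 and 2.14 in SD, and its arrays overlapped as well. The median shift of the 4 genes was 0.03.

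**Figure D3:**
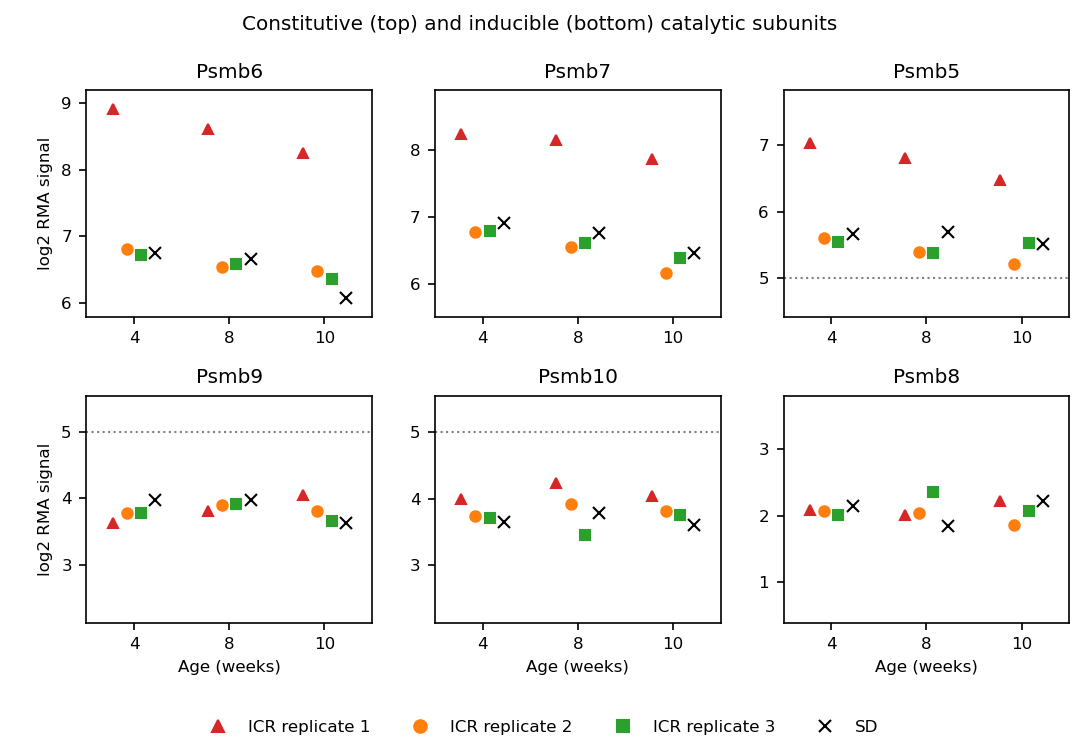
Log2 RMA signals (vertical axis, the same span in each panel, placed at each gene's own range) by age in weeks for the constitutive catalytic subunits Psmb6, Psmb7 and Psmb5 and, under each, the inducible subunit that replaces it, Psmb9, Psmb10 and Psmb8 (triangles, circles and squares, ICR replicates 1, 2 and 3; crosses, SD; dotted line, the limit of 5). The triangles stand above all other symbols in the upper panels, by 2.01 on average for Psmb6, and lie among or just above them in the lower panels, all of which are under the limit.

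The base of the regulatory particle holds a ring of 6 ATPases, Psmc1 to Psmc6, that unfolds substrates. Psmc2, the ATPase with the largest shift, had signals of 8.28, 6.13 and 6.73 at 4 weeks, 8.30, 6.07 and 6.43 at 8 weeks and 7.85, 6.23 and 6.56 at 10 weeks, and 6.22, 6.14 and 5.97 in SD. Its replicate 1 arrays were above all others, by 1.78 ± 0.30. Psmc6 had signals of 6.53, 5.68 and 5.55 at 4 weeks, 6.44, 5.20 and 5.17 at 8 weeks and 6.15, 4.64 and 5.11 at 10 weeks, and 5.24, 5.50 and 5.47 in SD, with a shift of 1.15. The other 4 ATPases were shifted by less, 0.90 for Psmc4, 0.70 for Psmc5, 0.49 for Psmc1 and 0.34 for Psmc3, and in all 6 the replicate 1 arrays lay above the other ICR arrays.

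The scaffold and receptor subunits of the base and the lid followed with smaller shifts. Psmd1, a scaffold subunit of the base, had signals of 7.40, 6.63 and 6.73 at 4 weeks, 7.46, 6.47 and 6.51 at 8 weeks and 7.29, 6.46 and 6.53 at 10 weeks, and 6.60, 6.57 and 6.31 in SD. Its shift was 0.83, that of the other scaffold subunit Psmd2 0.57 and that of the ubiquitin receptor Psmd4 0.58. The lid, which holds the deubiquitinase Psmd14, was uneven. Psmd6 had signals of 6.82, 5.53 and 5.17 at 4 weeks, 6.90, 4.84 and 4.90 at 8 weeks and 6.56, 4.77 and 4.68 at 10 weeks, and 5.61, 5.43 and 5.16 in SD. Its shift of 1.78 was the largest of the lid, followed by 1.07 for Psmd14, 0.69 for Psmd11, 0.62 for Psmd12 and 0.53 for Psmd7, and in all 5 the replicate 1 arrays were on top. Psmd13, another structural lid subunit, had signals of 7.26, 6.89 and 6.91 at 4 weeks, 7.0, 6.39 and 6.67 at 8 weeks and 6.83, 6.16 and 6.58 at 10 weeks, and 6.87, 6.65 and 6.27 in SD. Here the replicate 1 array of 10 weeks, at 6.83, lay below the 4-week arrays of replicates 2 and 3, so the arrays overlapped, and the shift was 0.43. The lid subunits Psmd8, below the limit, and Psmd3 had shifts of 0.35 and 0.17 and overlapped as well.

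Assembly factors hold subunits during construction and leave the finished particle. For the base, Psmd5 had signals of 5.79, 5.18 and 5.07 at 4 weeks, 5.56, 4.84 and 4.77 at 8 weeks and 5.55, 5.01 and 4.93 at 10 weeks, and 5.24, 4.88 and 4.96 in SD, with a shift of 0.66, and Psmd9 had a shift of 0.87. For the core, Psmg2, a chaperone of the alpha ring that works as a pair with Psmg1, had signals of 4.08, 3.66 and 3.42 at 4 weeks, 3.75, 3.26 and 3.08 at 8 weeks and 3.35, 2.92 and 2.85 at 10 weeks, and 3.56, 3.54 and 3.36 in SD. All of its values were under the limit, its shift was 0.53, and within each replicate number it was lower at 10 than at 4 weeks. Psmg1, also under the limit, had a shift of 0.98, and Psmg4 one of 0.64.

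Other caps can take the place of the regulatory particle. Psme1 and Psme2 encode the PA28 activator, which is induced by interferon. Psme1 had signals of 4.52, 4.08 and 4.18 at 4 weeks, 5.03, 3.36 and 3.98 at 8 weeks and 5.15, 3.57 and 3.46 at 10 weeks, and 3.77, 3.26 and 3.29 in SD. It reached the limit on the replicate 1 arrays of 8 and 10 weeks alone, and its shift grew from 0.39 at 4 weeks to 1.36 at 8 weeks and 1.64 at 10 weeks, the widest spread over ages among the 35 tested genes. The shift of Psme2 was 0.82, 1.44 and 1.26 at the same ages. Psme4, which encodes the nuclear activator PA200, had signals of 6.34, 6.42 and 6.03 at 4 weeks, 6.10, 5.95 and 5.88 at 8 weeks and 5.83, 5.84 and 5.64 at 10 weeks, and 6.33, 5.92 and 5.61 in SD. Its replicate 1 arrays lay among the others, with a shift of 0.13. Psmf1, which encodes the regulator PI31, had signals of 7.44, 6.36 and 6.50 at 4 weeks, 7.15, 6.52 and 6.68 at 8 weeks and 7.06, 6.67 and 6.91 at 10 weeks, and 6.19, 6.39 and 6.06 in SD. Its replicate 1 arrays were the highest at each age, but the shift was 1.02 at 4 weeks, 0.55 at 8 weeks and 0.27 at 10 weeks.

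The prefix also takes in genes that are copies or otherwise no subunits, and 4 of these 5 stayed under the limit on every ICR array, so that their small shifts cannot be set against those of the subunits. Psmc3ip, a meiotic recombination factor, had signals of 3.62, 3.38 and 3.94 at 4 weeks, 3.81, 4.03 and 3.74 at 8 weeks and 3.57, 3.43 and 4.26 at 10 weeks, and 3.79, 4.07 and 4.27 in SD, with a shift of -0.13. Psme3ip1, whose product binds the PA28 gamma activator, had a shift of 0.31 and overlapping arrays. The pseudogene Psmd1-ps1 had signals of 3.99, 3.87 and 3.66 at 4 weeks, 4.20, 3.69 and 3.71 at 8 weeks and 3.67, 3.72 and 3.57 at 10 weeks, and 3.59, 3.48 and 3.58 in SD, with a shift of 0.25, and those of Psma6-ps1 and Psmb3l2 were -0.12 and -0.06. RefSeq (GRCr8) lists 46 copies or pseudogenes for 17 of the 43 subunit, assembly and regulator genes, and their transcripts could share probes with the parent gene, so the signals of these 17, Psmb6 and Psmb7 included, are uncertain in that respect. A further 10 probe sets with several symbols, 1 for Psma3 and its copy and 9 for Psme3, were left out.

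To ask whether these genes changed as opacity formed, the ages were compared in ICR. From 4 to 10 weeks 0 of the 35 genes passed the test (limma, adjusted p under 0.05 over 4546 genes, of which 0.154% passed). An unadjusted p under 0.05 was seen in 1, Psme4, and in 501 of the 4546 genes. The median difference was -0.18 against -0.10 over all genes tested, and 25 of 35 were negative (71.4%, against 65.5% of all genes). Since arrays of the same replicate number deviated together, the difference was also fitted with the replicate number as a block. Then 5 of 35 were lower and 0 higher, where 7.33% of all genes tested were lower and 1.58% higher. In that fit 12 of 35 had an unadjusted p under 0.05, as did 1207 of all 4546 genes tested. The 5 were spread over the particle, with 2 beta subunits, 1 ATPase, 1 lid subunit and 1 activator.

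Within the block fit, Psmc6 fell by 0.62 (standard error 0.14, limma adjusted p = 0.0294, 1.54-fold), from a mean of 5.92 ± 0.53 (SD, n = 3) at 4 weeks to 5.30 ± 0.77 at 10 weeks. Psmd13 fell by 0.50 (standard error 0.12, limma adjusted p = 0.0293), and Psme4 by 0.49 (standard error 0.11, limma adjusted p = 0.0253). Of the catalytic subunits, Psmb7 fell by 0.47 (standard error 0.11, limma adjusted p = 0.0268) and Psmb6 by 0.45 (standard error 0.11, limma adjusted p = 0.0389), and Psmb5 had a difference of -0.32. Psmb6, Psmb7 and Psmc6 are among the genes with listed copies. All 5 were lower at 10 than at 4 weeks within each of the 3 replicate numbers. For Psme4 every 4-week array lay above every 10-week array, with means of 6.27 ± 0.20 at 4 weeks and 5.77 ± 0.11 at 10 weeks (SD, n = 3), although without the block its adjusted p was 0.225. The next in order, Psmd6 (-0.50, limma adjusted p = 0.0597), Psma4 (-0.50, limma adjusted p = 0.0649) and Psmc4 (-0.56, limma adjusted p = 0.0671), missed the threshold.

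By group, all 5 tested alpha subunits and all 6 tested beta subunits had negative differences from 4 to 10 weeks, with a median of -0.33 in both rings. In the lid 3 of 7 were negative (median 0.03) and in the base scaffold and receptor group 1 of 3 (median 0.10). Of the 6 base ATPases 4 were negative (median -0.15), as were all 3 tested activators (median -0.20). The differences between groups were not tested. Of the 35 genes, 18 were lower at 10 than at 4 weeks in all 3 replicate numbers and 2, Psmd7 and Psmd14, were higher in all 3 (Psmd14 by 0.00 in replicate 1), where 35.2% of all genes tested were lower and 14.1% higher in all 3. The median change was -0.15 in replicate 1, -0.31 in replicate 2 and -0.18 in replicate 3, against -0.17, -0.07 and -0.04 over all genes tested. The calls depended on single arrays and on the settings, while all 5 genes kept their direction in the block fits. Of the 5, those still called were 0 without 4-week replicate 1, 4-week replicate 2, 10-week replicate 1 or 10-week replicate 2, 1 (Psmc6) without 10-week replicate 3 and 2 (Psmd13 and Psme4) without 4-week replicate 3. With no filter 0 were called at the same differences, and with quantile normalization or cyclic loess 0 were called at adjusted p-values of 0.0519 to 0.0809 (limma). Without the 3 replicate 1 arrays, which leaves 2 per age, 0 were called (limma adjusted p 0.097 to 0.182), and the differences were -0.74 for Psmc6, -0.53 for Psmd13, -0.51 for Psmb7, -0.49 for Psme4 and -0.35 for Psmb6. Without the block, the median of -0.18 became 0.10 when 4-week replicate 1 was left out and -0.52 when 10-week replicate 1 was left out. With 4-week replicate 1 left out and no block, the difference was 0.26 for Psmb6 and 0.02 for Psmb7. It stayed negative for Psmc6, Psmd13 and Psme4.

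**Figure D4:**
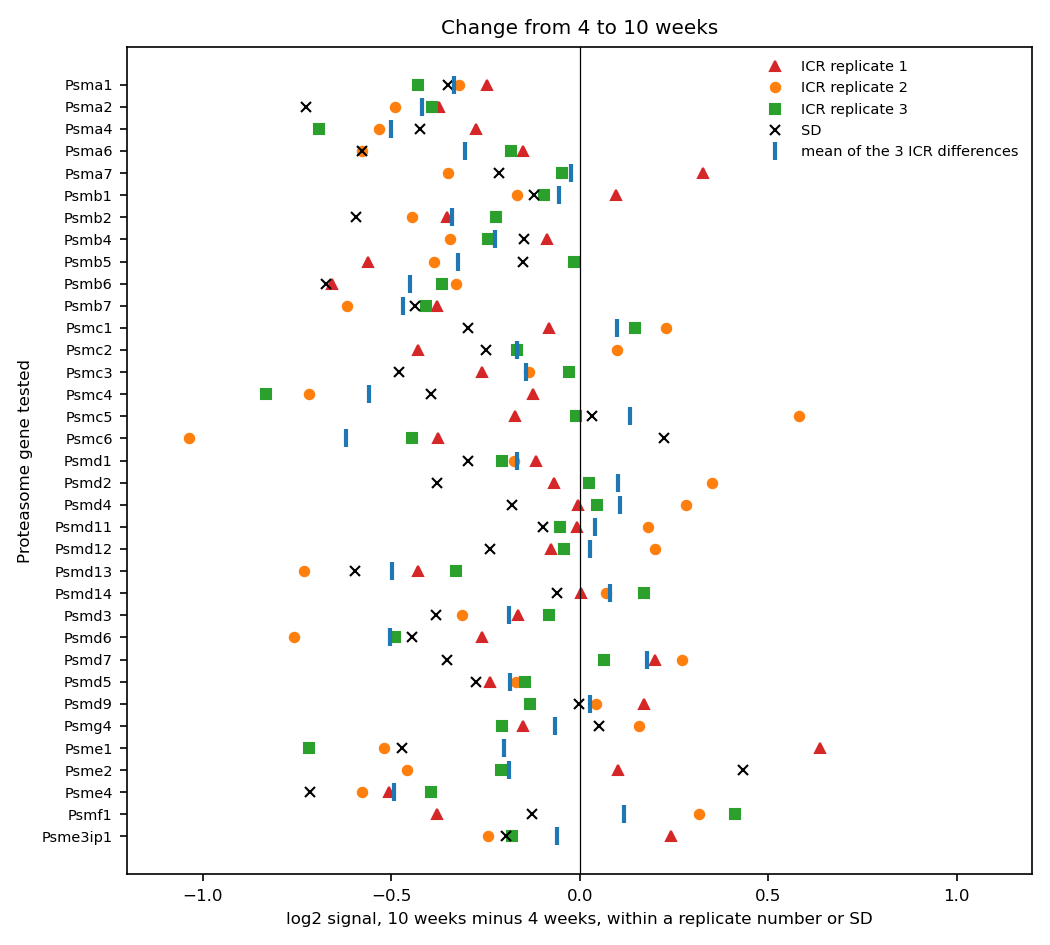
Difference in log2 signal from 4 to 10 weeks (horizontal axis) for each of the 35 tested proteasome genes (vertical axis), within ICR replicate numbers 1, 2 and 3 (triangles, circles and squares), for SD (crosses) and as the mean of the 3 ICR differences (bars). Most symbols of the alpha and beta subunits lie left of 0, and the means run from -0.62 for Psmc6 to 0.18 for Psmd7.

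The steps between were smaller. From 4 to 8 weeks 0 of 35 passed (limma, 0.0% of all genes tested) with 0 at an unadjusted p under 0.05 and a median difference of -0.08 against -0.07 over all genes. Such a p was seen in 246 of all 4546 genes tested. With the block 0 of 35 passed (0.176% of all genes) and 3 had an unadjusted p under 0.05, as did 649 of all 4546 genes tested. From 8 to 10 weeks 0 of 35 passed (limma, 0.0% of all genes) with 0 at an unadjusted p under 0.05 and a median of -0.11 against -0.03. Such a p was seen in 87 of all 4546 genes tested. Fitted with the block, 0 of 35 passed (0.22% of all genes), and 4 had an unadjusted p under 0.05, as did 421 of all 4546 genes tested. Comparing the opaque lenses of 8 and 10 weeks with the clear ones of 4 weeks, 0 of 35 passed (limma, 0.066% of all genes). An unadjusted p under 0.05 was seen in 1, and in 464 of all 4546 genes tested. Opacity and age coincide in ICR, so this comparison cannot tell them apart. With the block, Psmd13 (-0.41, limma adjusted p = 0.0385) and Psme4 (-0.39, limma adjusted p = 0.0404) were lower, where 5.43% of all genes tested were lower, and with any 1 of the 9 arrays left out the count of proteasome genes called was 0 or 1. By the study's own fold thresholds for rises and falls between means, 0 of 35 had changed by 8 or 10 weeks.

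The clear SD lenses also had lower signals at the later age. On the single arrays, 31 of 35 proteasome genes were lower at 10 than at 4 weeks, where 73.8% of all genes tested were, with a median of -0.30 (from -0.73 for Psma2 to 0.43 for Psme2) against -0.18 over all genes. For the 5 genes named above it was -0.72 for Psme4, -0.67 for Psmb6, -0.60 for Psmd13 and -0.44 for Psmb7, and 0.22 for Psmc6. The second probe set of Psmb6 fell by less in SD, with 6.49, 6.81 and 6.32 at 4, 8 and 10 weeks. With 1 array per age these differences have no replicate check. The change from 4 to 10 weeks differed between ICR and SD in 0 of 35 genes (limma interaction, 0.0% of all 4627 genes tested over the 12 arrays), with 0 at an unadjusted p under 0.05. A fit with ICR replicate numbers as a block, added after seeing the data, also gave 0 of 35 (limma, 0.0216% of all genes tested), with 2, Psmc6 and Psmd7, at an unadjusted p under 0.05. Such a p was seen in 70 of all 4627 genes tested without the block and in 345 with it. For Psmc6 the difference of the changes was -0.84, with a standard error of 0.97 without and 0.29 with the block (limma adjusted p = 0.566). Each SD age is 1 array, so both fits take the spread from the ICR arrays and assume that SD varies likewise.

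Some markers of the lens cell types moved with age in ICR too. In the block fit 3 of 10 epithelium markers, Slc2a1, Ptn and Meis1, were lower at 10 than at 4 weeks (median -0.30). Within ICR, Meis1 reached the limit on the 4-week replicate 2 array alone, and Ptn on the replicate 1 arrays of 4 and 8 weeks. Both thus entered the test only through ages at which they were high. Of the 12 fibre markers 2 were lower and 1 higher (median -0.17). Of the 2 tested ciliary body and iris markers 1 was lower. Over all genes tested 7.33% were lower and 1.58% higher in that fit, and without the block 0 genes of the 3 lists passed. Their part in the proteasome differences was not tested.

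Across strains at matched ages, ICR signals were higher in 34 of 35 genes and lower in 1, where 32.1% of all genes tested were lower. The median was 0.26 against 0.10 over all genes, but 0 of 35 passed (limma with age as a factor, 0.67% of all genes tested). An unadjusted p under 0.05 was seen in 1, Psmf1, and in 446 of all 4627 genes tested. The largest differences were 0.84 (standard error 0.54) for Psmc2, 0.76 (standard error 0.59) for Psmb6 and 0.71 (standard error 0.39) for Psme1. These 3 genes were among those with wide spread between replicate 1 and the other ICR arrays. Set apart, the replicate 1 arrays were higher than SD in 32 of 35 genes (limma adjusted p under 0.05, where 40.7% of all genes tested were higher), with a median of 0.87 against 0.26. The 32 include Psma2, Psme1 and Psmg4, which reached the limit only on these arrays, and of the other 32 genes tested 29 were higher. The 40.7% also counts genes that reached the limit only on these arrays. The share without such genes was not taken, so the 29 have no matched background. As these arrays were singled out for standing apart, these counts describe them and are no comparison of strains. The 6 ICR arrays numbered 2 or 3 differed from SD in 0 of the 32 proteasome genes that could be tested (limma, 2.0% of all genes). An unadjusted p under 0.05 was seen in 4 of them and in 658 of all 4009 genes tested. The median was 0.00, with 15 negative and 17 positive differences (47.7% of all genes were negative). There Psmc2 differed by 0.24, Psmb6 by 0.09 and Psmf1 by 0.39 (limma adjusted p = 0.138), and the lowest was Psmd6 at -0.42 (limma adjusted p = 0.0794). Taken alone, replicate 2 arrays gave a median of -0.03 and replicate 3 arrays 0.07, with 0 genes called in each and 3 and 6 at an unadjusted p under 0.05. Over all genes tested, 456 of 3889 and 685 of 3858 had such a p. Called were 23 higher and 22 lower of the 3889, and 51 higher and 63 lower of the 3858.

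**Figure D5:**
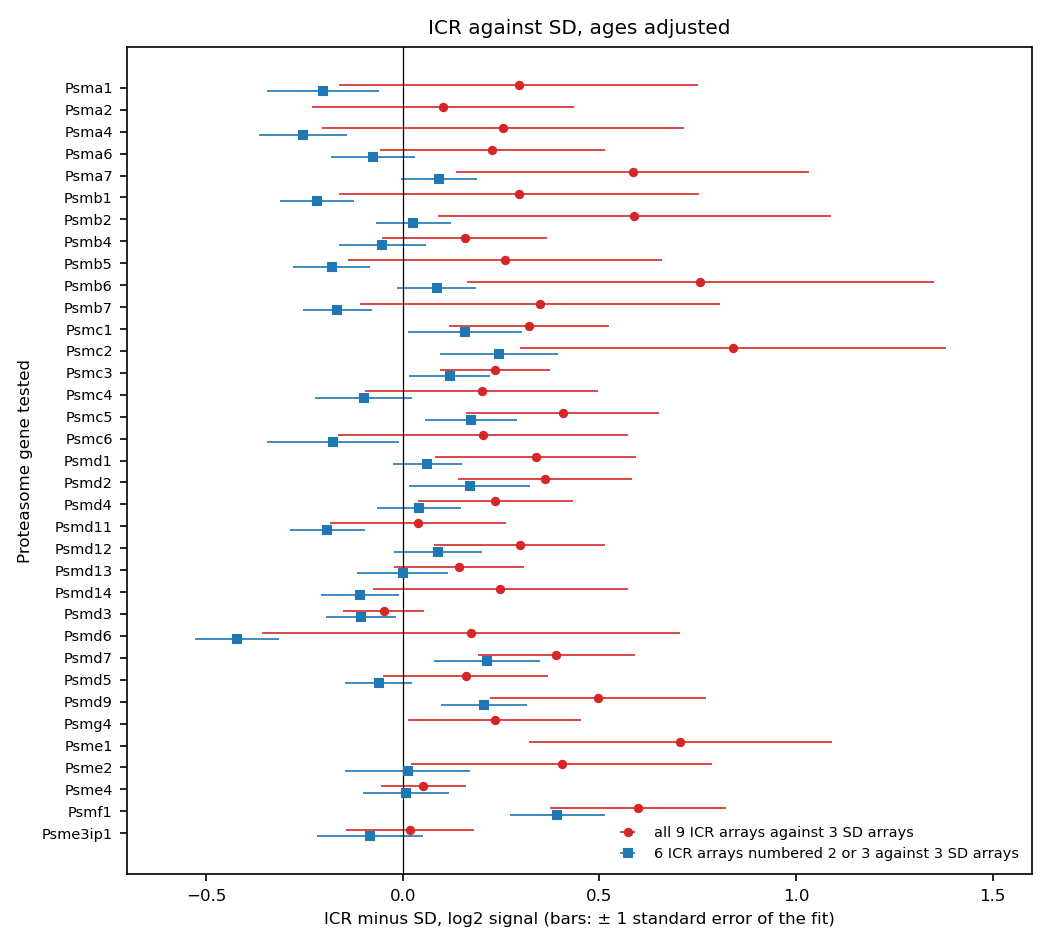
Difference between ICR and SD in log2 signal, with age as a factor (horizontal axis; bars, 1 standard error of the fit), for the 35 tested proteasome genes, from all 9 ICR arrays (red circles) and from the 6 numbered 2 or 3 (blue squares; 3 genes that reached the limit only on replicate 1 arrays have none). The red circles lie right of 0 for 34 of 35 genes (32.1% of all genes tested were negative), with long bars, and the blue squares lie on both sides of 0.

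Genes that work with the proteasome but lie outside the prefix rule were read beside it, from lists chosen with earlier results of these data known. Of 10 tested partners, 7 had all replicate 1 arrays above the other ICR arrays (35.0% of all genes tested), with a median shift of 0.92. Of the 10, Txnl1, Usp14, Uchl5 and Ddi2 reached the limit in ICR only on replicate 1 arrays, and without them the count was 4 of 6 (28.9% of the 3853 genes that reached it without those arrays) and the median 0.68. The following are named for their roles, with their values known. Pomp, the maturation factor of the core, had a shift of 1.31, the small regulatory subunit Sem1 1.04, the ubiquitin receptor Adrm1 0.80, and the deubiquitinases Usp14 and Uchl5, both among the genes just set aside, 1.18 and 1.14. Nfe2l1, the transcription factor that raises proteasome genes when the protease is inhibited, had a shift of -0.17, and Ddi2, the protease that activates it, 0.02. Of 9 tested ubiquitin and delivery genes 2 (Ufd1, 1.12, and Nsfl1c, 0.86) had the replicate 1 arrays on top, with a median shift of 0.21, close to that of all genes tested. Of the partners 0 of 10 passed from 4 to 10 weeks with the block (limma, 2 at an unadjusted p under 0.05), and of the ubiquitin and delivery genes 1 of 9, the segregase Vcp, was lower (-0.45, limma adjusted p = 0.0379), where 7.33% of all genes tested were. Without the block its adjusted p was 0.427 (limma). The smallest p among the partners belonged to Zfand5 (-0.55, limma adjusted p = 0.0556) and Usp14 (-0.39, limma adjusted p = 0.113).

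Of 19 measured genes of class I antigen presentation and interferon response, 3 (B2m, Erap1 and Irf1) reached the limit on an ICR array, and 16 did not. B2m, the light chain of class I molecules, had a shift of 1.32 with the replicate 1 arrays on top, Erap1 one of 0.38 and Irf1 one of -0.04, both with overlapping arrays. From 4 to 10 weeks 0 of the 3 passed with or without the block (limma, 0 at an unadjusted p under 0.05 in either fit), and with the block the smallest p belonged to Erap1 (0.31, limma adjusted p = 0.188) and B2m (0.36, limma adjusted p = 0.286).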

How the data were processed

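RNA of whole lenses was measured on 12 arrays. The signals deposited by the authors are log2 values after Robust Multi-array Average normalization and were used unchanged (package version, and whether all arrays were normalized together, not given in the sources used here). Of 36685 probe sets, 18511 have 1 symbol in the platform annotation, 575 several, and 17599 are not listed there. For 291 genes with several probe sets, that of highest mean signal in ICR was kept. All 48 symbols matched RefSeq. Groups came from the labels.

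Genes at a signal of 5 or more on at least 1 array entered linear models in limma 3.58.1 (lmFit, eBayes; R 4.3.3), 2-sided, with Benjamini-Hochberg adjustment over all genes tested and a threshold of 0.05. The scripts were tested on simulated data. Replicate numbers, from the sample titles, served as the block for the ICR samples, although the titles name no pairing. The block rests on these same signals. Deviations of same-numbered arrays from their age means correlated with 0.837 to 0.848 for number 1 and with 0.547 to 0.687 for numbers 2 and 3. Those of different numbers correlated with at most 0.508. Figures used matplotlib 3.10.9. Values per array are given for genes called in any comparison, those that changed most with age in their group, the catalytic subunits, those with the largest shift either way and the 3 with the largest strain difference. Of other lists, the genes called or else the 2 of smallest p are named. Members, lists and tests were chosen with earlier results of these data known. Other normalizations, filters and left-out arrays were tried.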

Additional observations from a re-analysis of the deposited data

How the results depend on the processing

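Without the replicate block, the count of proteasome genes called was 0 in all 4 age and opacity comparisons, in ICR against SD and in the interaction under every alternative (no filter, a signal of 5 on at least 3 arrays, quantile normalization, cyclic loess, mean of probe sets, variance trend, each array left out, for the interaction only the 10 whose removal left a value), except that the replicate block gave 5 from 4 to 10 weeks and 2 for opacity, and the replicate 1 arrays alone gave 32 against SD. The alternatives to the block fits, other than no block, were chosen after seeing the data. From 4 to 10 weeks, the count of 5 with the replicate block was 0 with no replicate block, no filter, quantile normalization, cyclic loess or without the 3 replicate 1 arrays, 8 with a signal of 5 on at least 3 arrays, 8 with variance trend, and 0 to 6 with single arrays left out. For opacity, the count of 2 with the block was 0 under the same settings, 6 with variance trend and 0 to 1 with arrays left out. With no filter more genes are adjusted for, and with arrays left out fewer samples remain; otherwise the cause was not tested. The block changed no other call in the age comparisons or, added after seeing the data, in the interaction, where 0 passed. The median shift of the replicate 1 arrays, 0.87, was 0.58 with quantile normalization and 0.72 with cyclic loess. Without the block, the median difference ranged, with single arrays left out, from -0.52 to 0.10 (4 to 10 weeks), -0.44 to 0.20 (4 to 8 weeks), -0.41 to 0.29 (8 to 10 weeks) and -0.29 to 0.17 (opacity), so its sign rested on single arrays. Of 720 single-gene values under alternatives, 0 called ones changed direction, 54 lost and 23 gained the threshold. The interaction with replicate 1 arrays alone was not run, as no residual degrees of freedom were left. Genes under the limit were not tested, and SD has 1 array per age.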
